A study of Rattus norvegicus with 6 samples.

Results

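Voltage-gated sodium channel subunits were examined in RNA-seq counts from rat amygdala. The members are the 8 genes Scn1a, Scn2a, Scn3a, Scn8a, Scn9a, Scn2b, Scn3b and Scn4b, chosen by symbol from the 38445 genes in the count tables. Of these, 5 encode pore-forming alpha subunits and 3 encode auxiliary beta subunits. The tissue came from adult male wild-type Sprague Dawley rats that received 1 intraperitoneal injection, of saline in the control group and of ethanol (1 g/kg) in the other, and the amygdala was taken 1 h afterwards. Each group of 6 rats gave 3 libraries, because the RNA of 2 rats was pooled for each one, so the spread between libraries is the spread between pools. The dissected amygdala held the central, medial and basolateral nuclei together.

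Sodium channels open when a neuron is depolarized and carry the inward current of the action potential. A large alpha subunit forms the whole pore and its voltage sensors, and small beta subunits with an extracellular immunoglobulin-like domain change its gating, its delivery to the membrane and its contacts with other cells. Different alpha subunits dominate in different neurons and on different stretches of the axon, and the axon initial segment, where they are most concentrated, is where the spike starts.

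The libraries held between 62576504 and 70755739 reads assigned to genes, of which the 8 subunits took 0.109% to 0.137%. Levels are given as counts per 1000000 assigned reads (CPM) after TMM scaling between libraries, and 3 counts correspond to 0.0424 to 0.0479 CPM. This floor covers counting error only. All 8 members passed the filter on low counts, among 18141 genes tested. The tissue carried neuronal RNA in every library: the 6 general neuron markers summed to 3431 to 4559 CPM, although Eno2 among them was listed at 0 to 5 counts. The 6 central amygdala markers summed to 198 to 232 CPM, of which Sst alone took 132 to 167 CPM. The libraries differed in other cell types. Oligodendrocyte markers (7 genes) summed to 8481, 3592 and 5931 CPM in controls 1, 2 and 3 and to 4402, 6089 and 9821 CPM in ethanol libraries 1, 2 and 3. Choroid plexus markers (7 genes, with Otx2 at 0 or 1 counts) summed to 502, 1086 and 870.0 CPM in controls 1, 2 and 3 and to 10.3, 11.97 and 465 CPM in ethanol libraries 1, 2 and 3. Ethanol 3 was thus close to control 1, and the other ethanol libraries were far below both, while these ranges did not overlap (2-sided exact permutation test, p = 0.1, the lowest value possible with 3 libraries a group). The 6 of these markers that could be tested each had a log2 fold change below 0, with a median of -1.78. In edgeR's quasi-likelihood test 3 of the 6 had an unadjusted p below 0.05, beside 4.15% of all genes, and 0 passed an adjusted p of 0.2. The groups did not overlap for 3 of the 6, beside 8.85% of all genes. The part of these cell types in the subunit values below was not tested.

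The alpha subunit genes lie mostly in a single cluster. In Rnor_6.0, Scn3a (chromosome 3 from 51530897 to 51643140, minus strand), Scn2a (51687910 to 51822008, plus strand), Scn1a (52388811 to 52533365, minus strand) and Scn9a (52583953 to 52664209, minus strand) span 1133313 bases in all. Scn3a and Scn2a are 44769 bases apart on opposite strands, and Scn1a and Scn9a are 50587 bases apart on the same strand. Scn8a stands alone on chromosome 7 (142575629 to 142683659, plus strand). The beta subunit genes share chromosome 8 and its plus strand, with Scn3b at 44136413 to 44159011, Scn2b at 49419003 to 49431110 and Scn4b at 49441106 to 49456279. Only 9995 bases separate Scn2b from Scn4b. The alpha genes were counted over 26 to 30 exonic blocks with 6431 to 11913 exonic bases, and the beta genes over 5 to 7 blocks with 4272 to 4595 bases. No other gene on the same strand lay within any member. Scn9a and Scn3a share 4 and 10 exonic bases with genes on the opposite strand, which the strand-specific counting kept apart.

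The neighbours Scn2b and Scn4b behaved differently across libraries, as the values further down show, and their upstream sequences are printed here for that reason. RefSeq promoter entries (GRCr8 build) were found for 6 of the 8 members, all except Scn1a and Scn3b. The 250 bases before the annotated start are given 5′ to 3′, with each CG dinucleotide in capitals. The Scn2b stretch is chr8:54322133-54322382 and the Scn4b stretch is chr8:54343623-54343872 in GRCr8, both on the plus strand.

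Scn2b: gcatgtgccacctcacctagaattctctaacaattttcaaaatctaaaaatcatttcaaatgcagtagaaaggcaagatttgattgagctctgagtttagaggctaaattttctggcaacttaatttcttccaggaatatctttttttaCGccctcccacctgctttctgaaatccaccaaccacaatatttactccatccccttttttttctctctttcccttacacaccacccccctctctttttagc

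Scn4b: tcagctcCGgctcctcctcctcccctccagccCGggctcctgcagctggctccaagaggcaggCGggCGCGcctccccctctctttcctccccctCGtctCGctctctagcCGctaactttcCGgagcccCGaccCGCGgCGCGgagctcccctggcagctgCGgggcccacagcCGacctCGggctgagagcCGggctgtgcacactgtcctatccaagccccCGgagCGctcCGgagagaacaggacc

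The Scn2b stretch has 1 CG and a GC content of 38.8%, and the Scn4b stretch has 21 CG and 71.6%. Over 33469 promoter entries of the same length, the median was 5 CG and 51.2% GC, and 18.1% of the entries had no more CG than Scn2b while 86.3% had no more than Scn4b. Among the other members, Scn2a and Scn3a had 4 CG each (39.6% and 41.6% GC), Scn9a had 5 (52.4% GC) and Scn8a had 53 (86.0% GC). The count for Scn8a was exceeded by few entries, since 99.99% had no more. These are properties of the sequence, and no chromatin measurement at these sites was analysed here. Whether they bear on the levels across libraries was not tested.

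To compare genes with each other, levels were divided by exonic length and are given as CPM per kilobase of exons. On that scale, averaged over the 6 libraries, Scn2b came first at 73.0 ± 6.24 (SD, n = 6) and Scn3b next at 72.0 ± 10.8 (SD, n = 6). Scn2a followed at 42.4 ± 6.09, Scn8a at 15.7 ± 2.52, Scn3a at 6.94 ± 0.492, Scn1a at 4.00 ± 0.435, Scn4b at 2.67 ± 1.51 and Scn9a at 0.943 ± 0.193 (each SD, n = 6). Scn2b and Scn3b exceeded 94.4% of the 18141 tested genes in level per exonic length, Scn2a exceeded 89.8%, and Scn9a only 27.1%.

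**Figure D1:**
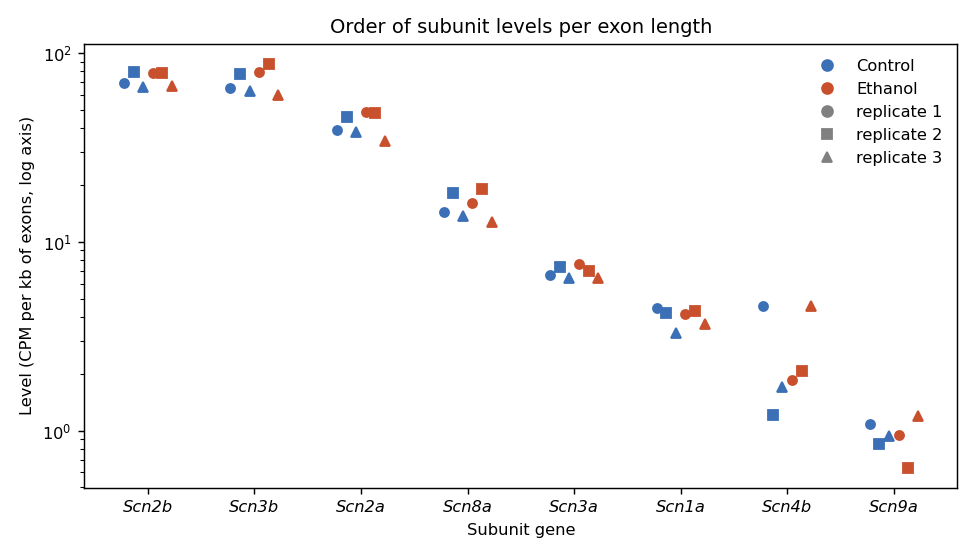
Level of each subunit gene in CPM per kilobase of exons on a log axis, 1 point per library (blue control, red ethanol, symbol by replicate). The genes are ordered by their mean over 6 libraries, from Scn2b at 73.0 to Scn9a at 0.943, and the ranges of Scn2b and Scn3b and of Scn1a and Scn4b overlap.

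Neighbours in this order were compared within libraries, with a 2-sided exact sign-flip permutation test on the log2 ratio whose smallest possible p over 6 libraries is 0.0312. The pairs were picked by the means of these same 6 libraries, so the p-values are not separate evidence for the order. For 5 of the 7 neighbour pairs the order was the same in 6 of 6 libraries, with an adjusted p of 0.0437 from this exact test after Benjamini-Hochberg adjustment over the 7 pairs. Scn3b exceeded Scn2a by 1.7-fold, Scn2a exceeded Scn8a by 2.71-fold, Scn8a exceeded Scn3a by 2.24-fold, Scn3a exceeded Scn1a by 1.74-fold and Scn4b exceeded Scn9a by 2.54-fold. Scn2b and Scn3b did not differ beyond their spread (ratio 0.894 to 1.12, Scn2b higher in 4 of 6 libraries, exact adjusted p = 0.531). Scn1a and Scn4b did not either (ratio 0.802 to 3.44, Scn1a higher in 4 of 6 libraries, exact adjusted p = 0.146). The order rests on the exons in the annotation, and a transcript longer or shorter than annotated would shift its gene.

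The ethanol comparison asks whether subunit transcripts changed within 1 h of the injection. No member was called. The fit covered all 18141 genes with edgeR's quasi-likelihood test, and 0 of the 8 members had an adjusted p below 0.2, with an adjusted p of 1.0 for each after Benjamini-Hochberg adjustment. Over all genes 0% were called by this test and by limma-voom, 0.408% by DESeq2 (74 genes) and 0.424% by edgeR's likelihood ratio test (77 genes), and none of these calls was a member. At an unadjusted p below 0.05, 0 of 8 members stood against 4.15% of all genes (752 of 18141), made up of 1.57% higher and 2.57% lower after ethanol. The 2 groups overlapped for 8 of 8 members, whereas 8.85% of all genes had groups that did not overlap, 3.66% with ethanol higher and 5.19% with ethanol lower. The log2 fold change lay above 0 for 7 members and below 0 for 1, with a median of 0.051, beside 52.6% of all genes above 0 and a median over all genes of 0.0064. The members share the same 6 libraries, so their signs are not separate observations. Scaling by library size alone moved the median of all genes to -0.02.

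**Figure D2:**
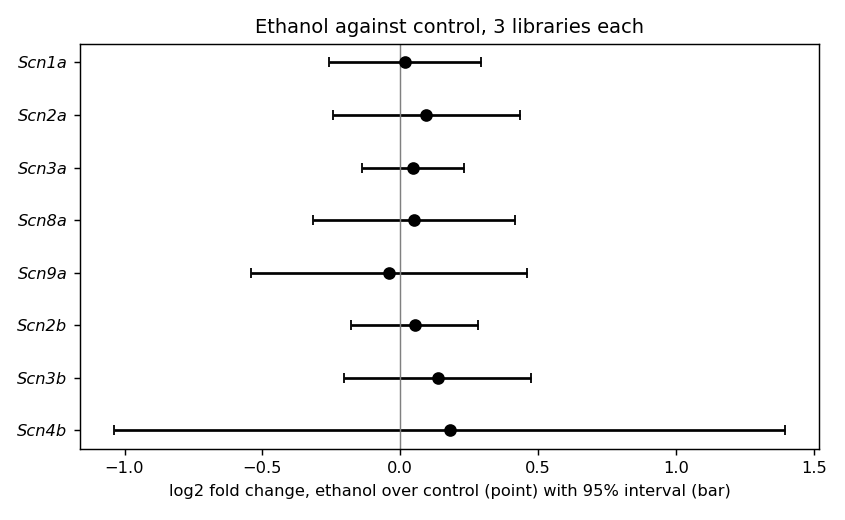
Log2 fold change of ethanol over control for each subunit (points) with its 95% interval from edgeR's quasi-likelihood fit (bars), 3 libraries per group. Every interval crosses 0, and the bar of Scn4b, from -1.04 to 1.40, is the widest.

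Scn2a, which is known for carrying current in the axons and initial segments of excitatory neurons, had the highest level per exonic length among the alpha subunits. It stood at 326, 385 and 318 CPM in controls 1, 2 and 3 and at 407, 405 and 287 CPM in ethanol libraries 1, 2 and 3. The first 2 ethanol libraries were above every control and the third below every control, so the groups overlapped across the whole control range. The control mean was 343 ± 36.9 CPM and the ethanol mean 366 ± 68.8 CPM (SD, n = 3 each). The log2 fold change was 0.09 (standard error 0.15, 95% interval -0.25 to 0.43, edgeR adjusted p = 1.0).

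Scn8a, the main alpha subunit of mature nodes of Ranvier and distal initial segments, showed a similar picture. Its levels were 92.0, 116 and 88.6 CPM in controls and 103, 123 and 81.7 CPM in ethanol libraries. Ethanol libraries 2 and 3 were the highest and the lowest of all 6. Between groups the log2 fold change was 0.05 (standard error 0.16, 95% interval -0.32 to 0.42, edgeR adjusted p = 1.0).

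Scn3a is best known as an alpha subunit of the developing brain, and it was nevertheless measured here in adult tissue with 4881 to 6212 counts per library. It was at 79.8, 87.4 and 77.0 CPM in controls and at 91.3, 83.8 and 77.0 CPM after ethanol. It was the steadiest member, with its highest library 1.19 times its lowest. The log2 fold change was 0.05 (standard error 0.08), and the 95% interval from -0.14 to 0.23 was the narrowest among the 8.

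Scn1a, the alpha subunit on which many inhibitory interneurons depend, was at 38.9, 36.4 and 28.8 CPM in controls and at 36.0, 37.5 and 31.9 CPM after ethanol. All 3 ethanol libraries lay inside the control range. Its log2 fold change of 0.02 (standard error 0.12, 95% interval -0.26 to 0.29) changed sign, to -0.011, with library size alone. The summed markers of parvalbumin interneurons (6 genes) had a similar range in the groups, from 229 to 277 CPM in controls and from 249 to 264 CPM after ethanol. Kcnc1 and Kcnc2 were the largest in this sum, and Pvalb itself was at 12.2 to 20.1 CPM. The genes did not move together, with log2 fold changes from -0.38 to 0.20. Tac1 was at 61.3, 50.1 and 47.7 CPM in controls and at 38.3, 32.8 and 51.1 CPM after ethanol.

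Scn9a, best known from peripheral pain-sensing neurons, had the lowest level per exonic length of the 8. It was at 10.05, 7.90 and 8.74 CPM in controls and at 8.86, 5.92 and 11.1 CPM after ethanol, from 381 to 776 counts per library. The ethanol libraries spanned more than the whole control range, with library 2 the lowest and library 3 the highest of all 6. Its log2 fold change of -0.04 (standard error 0.22, 95% interval -0.54 to 0.46) was the only negative value among the members.

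Among the beta subunits, Scn2b encodes a subunit that is linked to the alpha subunit by a disulfide bond. It was at 318, 366 and 304 CPM in controls and at 358, 359 and 307 CPM after ethanol. The 3 ethanol libraries lay inside the control range, and the log2 fold change was 0.05 (standard error 0.10, 95% interval -0.18 to 0.28).

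Scn3b encodes a beta subunit that associates with the alpha subunit without such a bond. It was at 288, 340.5 and 278 CPM in controls and at 348, 385 and 263 CPM after ethanol. As for Scn2a, ethanol libraries 1 and 2 were above every control and ethanol library 3 below every control. The control mean was 302 ± 33.5 CPM and the ethanol mean 332 ± 62.4 CPM (SD, n = 3 each). The log2 fold change of 0.14 (standard error 0.15, 95% interval -0.20 to 0.47) had the smallest unadjusted p among the members, 0.381 in edgeR's quasi-likelihood test.

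Scn4b encodes the beta subunit known for resurgent sodium current, in which it acts as an open-channel blocker. It was the least even member. Its levels were 19.6, 5.18 and 7.29 CPM in controls and 7.96, 8.86 and 19.5 CPM after ethanol, from counts of 1285, 368 and 462 in controls and 511, 570 and 1356 in ethanol libraries. Control 1 and ethanol 3 stood at about the same level, more than 2 times any other library, and the remaining 4 lay between 5.18 and 8.86 CPM. The highest library was 3.79 times the lowest, while counting error at the lowest count is 5.21%, and 98.7% of the tested genes had a smaller SD of log2 CPM over the 6 libraries. The control mean was 10.7 ± 7.82 CPM and the ethanol mean 12.1 ± 6.40 CPM (SD, n = 3 each). The log2 fold change was 0.18 (standard error 0.53, edgeR adjusted p = 1.0) with a 95% interval of -1.04 to 1.40. As a fold this is 0.487 to 2.63, so the interval includes a 2-fold change in either direction. Without control 1 the log2 fold change was 0.95, without ethanol 3 it was -0.35, and without both it was 0.43, with adjusted p from edgeR of 1.0, 0.862 and 0.671. The adjusted p ran from 0.671 to 1.0 over all the alternatives tried.

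**Figure D3:**
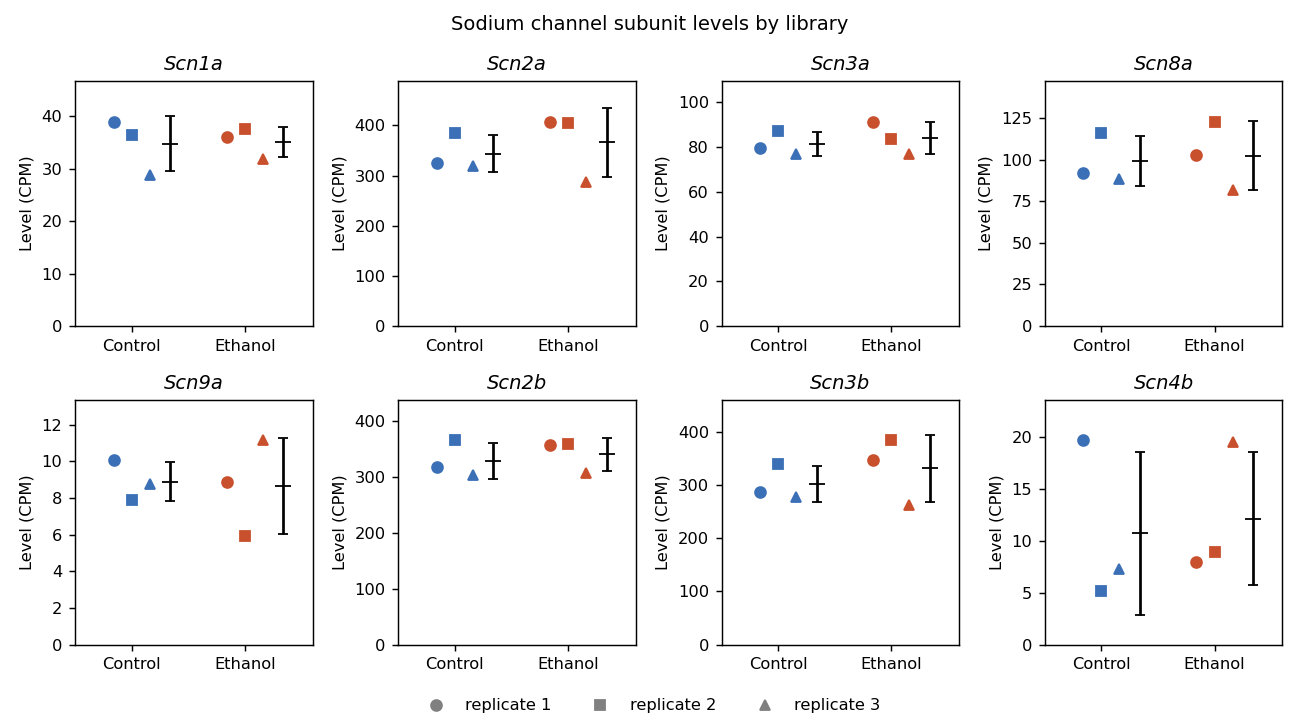
Level of each subunit in CPM (linear axes from 0) in the 3 control (blue) and 3 ethanol (red) libraries, with the symbol giving the replicate number and the black bar the mean ± SD of the group. Ethanol 3 is the lowest of the 6 libraries for Scn2a, Scn8a and Scn3b, and control 1 and ethanol 3 stand at 19.6 and 19.5 CPM for Scn4b.

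With 3 libraries per group, a 2-sided exact permutation test on log2 CPM over 20 label swaps cannot give a p below 0.1, and it gave between 0.6 and 0.9 for the 8 members. Without ethanol 3, 2 of 8 members reached an unadjusted p below 0.05, namely Scn2a (log2 fold change 0.24, unadjusted p = 0.0337, adjusted p = 0.529) and Scn3b (0.28, 0.0276, adjusted p = 0.506) in edgeR's quasi-likelihood test. In the same fit 1629 of 18356 genes, or 8.87%, had an unadjusted p below 0.05, and 83 were called. Over the alternatives tried, the adjusted p of these 2 genes stayed between 0.506 and 1.0.

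The make-up of the channel pool was compared next, as the share of each subunit in the summed level per exonic length of its class. Such a share does not depend on how libraries are scaled to each other. Scn2a made up 60.2% ± 0.690 (SD, n = 3) of the 5 alpha subunits in controls and 60.8% ± 2.03 (SD, n = 3) after ethanol. Its values were 59.5%, 60.2% and 60.8% in controls and 62.8%, 60.9% and 58.8% in ethanol libraries. Scn8a took 22.5% ± 0.973 and 22.2% ± 1.70, Scn3a 10.1% ± 0.401 and 9.95% ± 1.12, Scn1a 5.85% ± 0.836 and 5.67% ± 0.525, and Scn9a 1.42% ± 0.279 and 1.36% ± 0.637 in controls and after ethanol (each SD, n = 3). None of the 5 shares differed between groups beyond its spread (2-sided exact permutation tests, p = 0.6 to 1.0 over the 5, not adjusted).

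**Figure D4:**
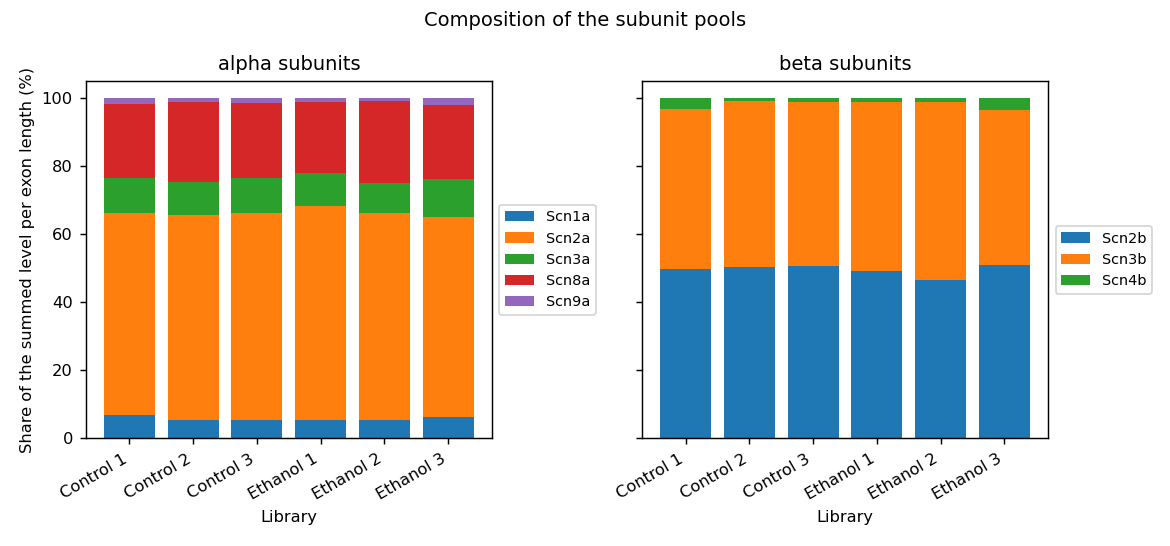
Stacked bars, 1 per library, of the share in percent that each gene takes of the summed level per exonic length of the 5 alpha subunits (left) and the 3 beta subunits (right). Scn2a takes 58.8% to 62.8% of the alpha pool in every library, and Scn4b takes 0.767% to 3.48% of the beta pool.

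In the beta pool, Scn2b took 50.2% ± 0.449 (SD, n = 3) in controls and 48.9% ± 2.19 (SD, n = 3) after ethanol, and Scn3b took 48.0% ± 0.934 and 49.1% ± 3.34. Scn4b took 3.30%, 0.767% and 1.30% in controls and 1.17%, 1.24% and 3.48% in ethanol libraries. The exact permutation p lay between 0.5 and 0.7 for the 3 shares, not adjusted. The summed level of the 3 beta subunits was 2.05 to 2.25 times that of the 5 alpha subunits in every library, with means of 2.10 ± 0.030 in controls and 2.14 ± 0.101 after ethanol (SD, n = 3 each). Single genes in this ratio differed between libraries by 1.19-fold (Scn3a) to 3.79-fold (Scn4b).

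The libraries fell into a pattern that crossed the groups. For 5 of the 8 members (Scn2a, Scn3a, Scn8a, Scn2b and Scn3b), the 3 highest libraries were control 2, ethanol 1 and ethanol 2, and the 3 lowest were controls 1 and 3 and ethanol 3. This set of 3 was not planned and was read from the members' own values. As a description without a test, the same 3 libraries were highest for 14.5% of all tested genes. They were also the highest 3 for the summed general neuron markers, at 3994, 4194 and 4559 CPM against 3765, 3526 and 3431 CPM in controls 1 and 3 and ethanol 3. The summed markers of cortical-type glutamatergic neurons (8 genes) split the same way, at 1869, 1855 and 2155 CPM against 1322, 1617 and 1340.1 CPM. Snap25, the largest gene in the general neuron sum, departed from this split, with control 1 at 1787 CPM above control 2 at 1762 CPM. Syt1, Rbfox3, Tubb3 and Stmn2 of the same list followed it. In bulk tissue, fewer cells of a type and less RNA per cell cannot be told apart.

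**Figure D5:**
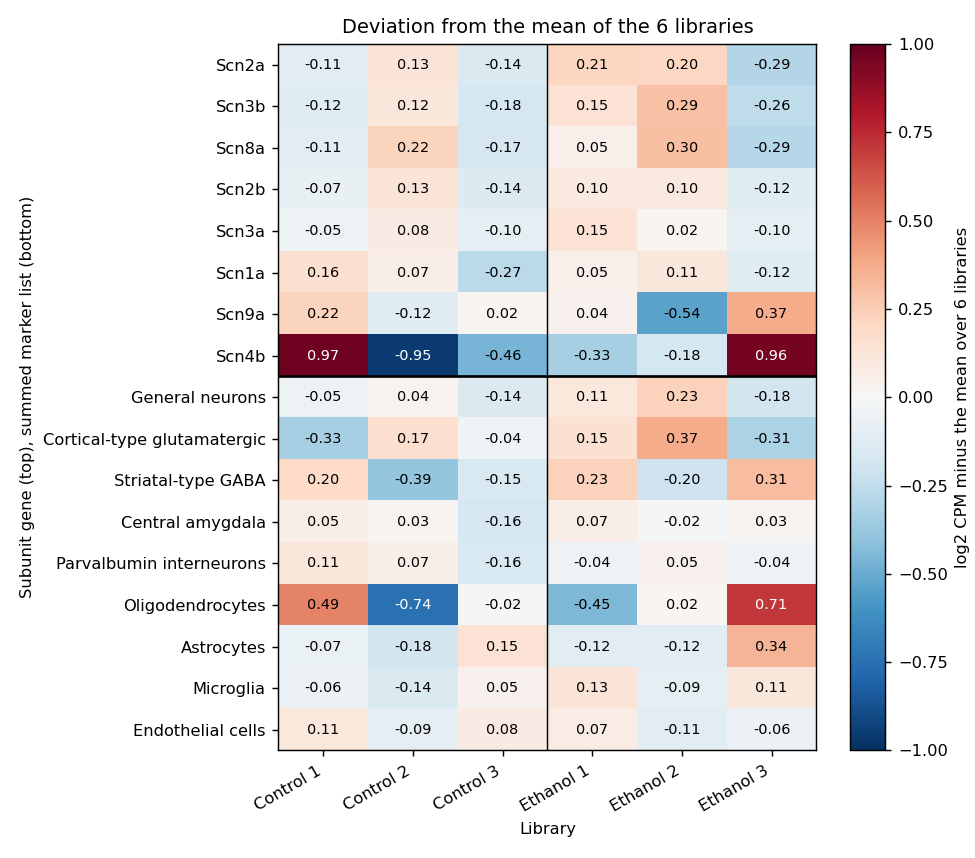
Deviation of log2 CPM from the mean of the 6 libraries, for each subunit (upper 8 rows) and for the summed CPM of 9 marker lists (lower rows), with libraries in columns and the value in each cell. Scn4b deviates by 0.97 in control 1 and 0.96 in ethanol 3, the libraries in which oligodendrocyte markers deviate by 0.49 and 0.71. The choroid plexus list is left out of the plot.

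Scn4b and Scn9a went the other way and were highest in control 1 and ethanol 3. These are the libraries with the 2 highest sums of oligodendrocyte markers and the 2 lowest sums of cortical-type glutamatergic markers. Striatal-type GABA neuron markers (8 genes) summed to 481 and 519.7 CPM in them, to 493 CPM in ethanol 1 and to 320.1 to 378 CPM in the other libraries. Penk alone made up 257 CPM of the sum in ethanol 1, and the genes on this list did not move together. Drd2 was at 10.6 and 8.33 CPM in control 1 and ethanol 3 and at 3.42 to 6.31 CPM elsewhere, Adora2a was at 10.8 and 9.32 CPM and at 3.11 to 5.90 CPM elsewhere, and Rgs9 was at 24.1 and 26.0 CPM and at 13.4 to 21.1 CPM elsewhere. These genes were thus highest in the libraries where Scn4b was highest. Rxrg ran the other way from Scn4b in ethanol 3, at 28.7 CPM the lowest of the 6, and was at 30.8 CPM in control 1. The ratio of the CPM of Scn2b to that of its neighbour Scn4b, not divided by length, was 16.2 in control 1 and 15.8 in ethanol 3, and 40.5 to 70.7 in the other 4 libraries. Scn1a followed neither pattern, with control 1 highest at 38.9 CPM and control 3 lowest at 28.8 CPM.

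Each member was also expressed per 1000 CPM of the summed general neuron markers in the same library, a scale that was added once the values were known. The SD of the log2 value over the 6 libraries then fell from 0.21 to 0.09 for Scn2a, from 0.23 to 0.11 for Scn8a, from 0.22 to 0.07 for Scn3b, from 0.12 to 0.08 for Scn2b and from 0.16 to 0.13 for Scn1a. It stayed at 0.10 for Scn3a, and it was larger for Scn9a (0.45 against 0.32 for CPM) and Scn4b (0.87 against 0.79). On this scale Scn3b was at 76.6, 85.2 and 78.8 in controls and at 83.0, 84.4 and 76.7 after ethanol. The log2 difference between groups was then 0.02 for Scn3b and -0.02 for Scn2a, and the exact permutation test gave p = 0.5 to 0.9 over the 8 members, not adjusted.

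The other genes of the sodium channel system were described from lists of 26 genes in all. None was called by edgeR's quasi-likelihood test, by DESeq2, by the likelihood ratio test or by limma-voom, and 0 of 26 had an unadjusted p below 0.05 beside 4.15% of all genes. The log2 fold change was above 0 for 22 and below 0 for 4, with a median of 0.043 and a range from -0.71 to 0.28. Over all tested genes, 52.6% were above 0 and the median was 0.0064. The summed general neuron markers also had a higher mean after ethanol, and these genes share the same 6 libraries, so their signs are not separate observations. The groups did not overlap for 1 of them, beside 8.85% of all genes. This was Scn4a, the skeletal muscle alpha subunit, which also had the smallest unadjusted p among those with a higher mean after ethanol. It was present at a low level, 2.16, 1.80 and 2.05 CPM in controls and 2.29, 2.49 and 2.27 CPM after ethanol. Its log2 fold change was 0.23 (standard error 0.13, edgeR adjusted p = 1.0). Scn7a, an atypical alpha subunit found in glia and linked to sodium sensing, had the smallest unadjusted p among the 4 with a lower mean after ethanol. It was at 1.67, 0.676 and 1.64 CPM in controls and at 0.717, 0.559 and 1.13 CPM after ethanol. Its log2 fold change was -0.71 (standard error 0.39, edgeR adjusted p = 1.0).

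Within these lists, the genes with the highest counts had small differences. Nalcn, the sodium leak channel that sets resting excitability, had 29.5 CPM per kilobase and a log2 fold change of 0.02 (standard error 0.11). Fgf12, which binds the C-terminus of the alpha subunit, Sptbn1, a spectrin of the membrane skeleton, and Dpysl2, an adaptor that affects channel trafficking, followed at 0.02, 0.04 and 0.08 on the log2 fold scale (standard error 0.08 each). The scaffold and adhesion genes of the initial segment and node (10 genes) ranged from -0.07 to 0.10 on the log2 scale and the 4 fibroblast growth factor homologous factors from -0.13 to 0.03.

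The gene whose log2 CPM was most alike over the 6 libraries was found for each member among 14759 other genes with a mean of at least 1 CPM. Pearson's r with the best match was 0.975 to 0.999. With so many genes and 6 libraries that share depth and cell make-up, values this high are a description of these libraries, and no p is given. Scn4b was most alike to Hdac5, a histone deacetylase, which was at 131 and 132 CPM in control 1 and ethanol 3 and at 105 to 114 CPM in the other 4 libraries, a far smaller relative spread. The match was Rxrg for Scn2a, a retinoid receptor that is also on the list of striatal-type markers used above. It was Srsf12 for Scn1a, Tmem179 for Scn3a, Znf48 for Scn8a, Amotl1 for Scn9a, Clcn7 for Scn2b and Fsd1l for Scn3b. The number of genes with r above 0.95 differed widely, from 6 for Scn1a and 35 for Scn3a to 313 for Scn2a and 358 for Scn3b.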

How the data were processed

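Each of the 6 libraries (3 control, 3 ethanol) has its own table. The authors deposited raw counts per gene. Per the file headers and labels, single-end reads of 100 nt from a stranded mRNA kit were aligned to Rnor_6.0 with STAR 2.7.0f (submitters' processing notes) and counted over exons with featureCounts in the reverse-stranded setting, and reads with several alignments or overlapping more than 1 gene were not counted. The alpha subunits are paralogs, so reads from stretches they share may be missing. Symbols came from a RefSeq gene table for 29322 of 38445 identifiers. In R 4.3.3, edgeR 4.0.16 kept genes by filterByExpr (minimum 10 counts, 15 in total), scaled by TMM (factors 0.976 to 1.01) and ran the quasi-likelihood F test. P-values were adjusted by Benjamini-Hochberg over all 18141 genes that passed, at the study's threshold of 0.2. The standard error is the absolute log2 fold change over the square root of F. DESeq2 1.42.0 and limma 3.58.1 served as alternatives. The members and lists were chosen with earlier results of these data known, and the partner genes named are the highest in count of each list and the smallest p in each direction. Some genes of these lists are not reported here.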

Additional observations from a re-analysis of the deposited data

How the results depend on the processing

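No member and no partner gene was called under any alternative that was run, and the block and the other tests changed none of these calls. Some fold changes moved by over 1.5 times: on the log2 scale Scn4b went from 0.18 to 0.32 with limma-voom and 0.31 with the replicate block, and Scn9a from -0.040 to -0.072 and -0.078. The number of all genes called was 0 with edgeR's quasi-likelihood test, 74 with DESeq2 and 77 with the likelihood ratio test, 0 to 83 when 1 library was left out (83 without ethanol 3, 4 without ethanol 1) and 87 without both control 1 and ethanol 3, an alternative added after the data were seen. With the replicate number as a block, 0 genes were called and 1015 had an unadjusted p below 0.05 (752 without the block). Same-numbered libraries hold different rats, so the numbers were not taken as pairs. Their deviations from the group means correlated by 0.0264, 0.388 and 0.211 for numbers 1, 2 and 3. Control 2 correlated best with ethanol 2 and control 3 with ethanol 3, while control 1 correlated best with ethanol 3 (0.305). The block lowered some standard errors, for Scn8a from 0.158 to 0.068. With library size alone the log2 fold change turned to -0.011 for Scn1a, -0.0084 for Fgf12 and -0.013 for Nalcn, and it was 0.024 for Scn2b, 0.018 for Scn3a, 0.021 for Scn8a and -0.062 for Scn9a. Relative to the neuron markers it turned to -0.077 for Scn1a, -0.022 for Scn2a, -0.058 for Scn3a, -0.061 for Scn8a and -0.050 for Scn2b. Without 1 library at a time, the log2 fold change ranged from -0.10 to 0.098 for Scn1a, 0.012 to 0.24 for Scn2a, -0.018 to 0.11 for Scn3a, -0.10 to 0.19 for Scn8a, -0.27 to 0.17 for Scn9a, -0.0024 to 0.14 for Scn2b, 0.016 to 0.28 for Scn3b, -0.35 to 0.95 for Scn4b, -0.025 to 0.080 for Fgf12, -0.052 to 0.13 for Nalcn, -0.0021 to 0.070 for Sptbn1 and 0.045 (without ethanol 1) to 0.14 (without ethanol 3) for Dpysl2, which was at 0.17 without both control 1 and ethanol 3. The difference in share (ethanol minus control, percentage points) ranged from -0.482 to 0.300 for Scn1a, -0.315 to 1.72 for Scn2a, -0.675 to 0.441 for Scn3a, -1.27 to 0.402 for Scn8a, -0.405 to 0.223 for Scn9a, -2.34 to -0.157 for Scn2b, -0.377 to 2.93 for Scn3b and -0.585 to 0.928 for Scn4b. Of the 7 neighbour pairs in the order of levels, 6 or 7 kept their order without 1 library, and 6 did without division by length, where Scn2a came first. The causes of these shifts were not tested. Counting error at the lowest count of each member was at most 5.21%.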
